A study of Mus musculus with 2 samples.

Results

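Nuclear receptors are transcription factors that bind hormones, vitamins or lipids, or that act with no known ligand. They were taken from the gene tables of 2 RNA-seq libraries by their gene symbols. Of 16428 genes with a read in at least 1 library, 38 had such a symbol, and 28 of these had 10 or more reads in at least 1 library. The other 10 had between 0 and 8 reads in each library. The 10 were Nr3c2, Esr2, Rxrg, Esrrb, Esrrg, Nr2f1, Nr2f2, Nr1h4, Ppara and Nr2e3, with 19 reads in all in bone marrow and 23 in spleen. At the edge of that limit, Nr0b2, with 10 reads in bone marrow and 1 in spleen, was kept, and Nr3c2, with 5 and 8 reads, was not. 1 of the 28 genes, Nr2c2ap, encodes a protein named for its association with the receptor encoded by Nr2c2 and is not itself a receptor, which leaves 27 receptor genes.

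The libraries came from macrophages sorted from the bone marrow and from the spleen of mice with acute myeloid leukaemia driven by the MLL-AF9 fusion oncogene. In both groups, GFP+ leukaemia cells taken from leukaemic mice had been given to C57BL/6J mice aged 6 to 8 weeks, at 500000 cells per mouse and with no irradiation. Macrophages were collected on day 15, and leukaemic mice survived for 25 to 30 days. The study's stated subject is the macrophages of leukaemic tissue, and healthy mice were not analysed here. The sources used here do not give the sort markers, the number of mice behind each library or the time of day of collection.

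A nuclear receptor typically has a zinc-finger domain that recognises a short DNA motif and a ligand-binding domain that exchanges corepressors for coactivators when a ligand binds. Many of them bind DNA as a pair with a retinoid X receptor. In macrophages they are known for tying lipid handling, vitamin A and D signals, steroid hormones and the circadian clock to inflammatory gene expression.

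There was 1 library per tissue, so no test between tissues was possible and every difference below is between these 2 libraries. After scaling the libraries to each other, their effective depths were 9405947 uniquely placed reads for bone marrow and 8457857 for spleen. Levels are given as CPM, the count divided by that depth, or as the deposited RPKM, which is also divided by gene length and is used to compare genes with each other. A gene was called higher in 1 library when log2(CPM + 1) differed by at least 2-fold. Ratios are of CPM with exact 95% binomial intervals, which cover counting error only, and reads are not independent molecules. Both libraries held the macrophage core markers: 15 of 15 had reads, with a summed level of 628 CPM in bone marrow, against 1335 CPM in spleen, and 0 passed 2-fold towards bone marrow and 8 towards spleen. Markers of other cells were also present. The neutrophil list summed to 48501 CPM in bone marrow, against 2261 CPM in spleen (15 of 17 measured genes higher in bone marrow). B cell markers summed to 512 and 5294 CPM in the same order of libraries (12 of 12 higher in spleen), T cell markers to 223 and 1773 CPM (14 of 14 higher in spleen), and dendritic cell markers to 343 and 1456 CPM (9 of 12 higher in spleen). Markers of eosinophils, basophils and mast cells summed to 2880 and 127 CPM (10 of 12 higher in bone marrow), and stem, progenitor and leukaemia-associated genes to 1981 and 429.5 CPM (11 of 13). Plasma cell markers summed to 560.4 and 2302 CPM (7 of 8 higher in spleen). Ly6g, a defining neutrophil surface gene, had no read in either library. The part of these cells in the receptor differences was not tested. In sorted bulk RNA, fewer cells of a type and less RNA per cell cannot be told apart.

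By that rule bone marrow had the higher level for 3 of the 28 genes and spleen for 6, and the other 19 stayed inside the limit. These are 10.7% and 21.4% of the genes, against 14.1% and 14.6% of all 12970 measured genes, of which 28.8% were past 2-fold in either direction. Other settings moved that background. Esr1, Vdr and Rora, all under 10 CPM, lost their call with a pseudocount of 5 and with RPKM. With library totals alone the shares of all genes towards bone marrow and spleen were 13.2% and 15.7%, and with DESeq2 size factors 14.2% and 14.5%. A pseudocount of 0.1 gave 16.1% and 17.2%, a pseudocount of 5 gave 9.59% and 9.33%, and RPKM in place of CPM gave 10.6% and 12.4%. Genes of at least 10 CPM gave 13.7% and 13.3%, and a 4-fold limit gave 4.42% and 4.09%. The median log2 ratio of bone marrow over spleen was -0.39, against 0.03 over all measured genes. It was -0.17 with a pseudocount of 5, -0.25 with RPKM, -0.17 over the 38 genes with any read and -0.64 over the 17 genes of at least 10 CPM. Thra, Esr1 and Vdr were the 3 towards bone marrow, and the 6 towards spleen included Nr4a1, Nr4a3, Rara, Nr1h3 and Rora. The counting interval left out a ratio of 1 for all 9 of them and for 9 of the 19 others. 24 genes reached 10 reads in both libraries. The other 4, among them Vdr, Nr0b2 and Rarb, passed that limit through 1 library alone. Counted together, the 37 receptor genes with a read summed to 831 CPM in the bone marrow library, against 1183 CPM in spleen.

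**Figure D1:**
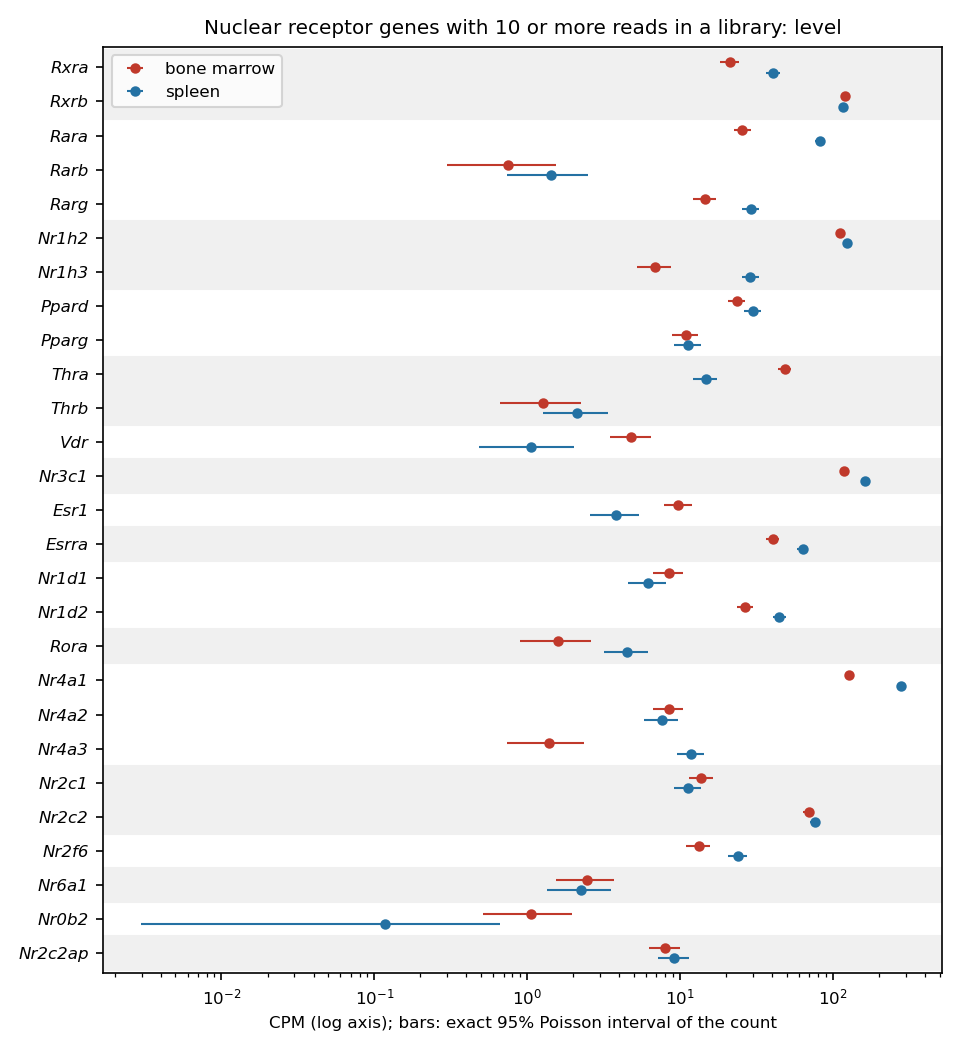
The level of 27 of the 28 genes in CPM on a log axis, with bone marrow (red) above spleen (blue) in each row and bars for the exact 95% Poisson interval of the count. Rows are grouped by receptor type. The levels run from 0.118 CPM for Nr0b2 in spleen to 279 CPM for Nr4a1 in spleen.

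Per length, the same 3 genes led both libraries. Nr1h2, which encodes the oxysterol receptor LXR beta, was first in bone marrow at 55.1 RPKM and second in spleen at 64.1 RPKM. Nr4a1 stood at 49.3 RPKM in bone marrow and 113 RPKM in spleen, where it was first. Rxrb stood at 44.2 RPKM in bone marrow and 45.3 RPKM in spleen. In bone marrow the counting interval of Nr4a1 overlapped those of Nr1h2 and Rxrb, while in spleen the intervals of the 3 genes were separate. In bone marrow the next genes were Thra, Nr3c1 and Esrra at 21.0, 18.2 and 17.4 RPKM, of which Nr3c1 overlapped both of its neighbours' counting intervals. In spleen the next were Esrra, Nr3c1 and Rara at 28.6, 25.9 and 24.9 RPKM, and the intervals of Nr3c1 overlapped those of both others. Thra was at 6.68 RPKM in spleen, and Rara at 7.37 RPKM in bone marrow.

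The NR4A receptors, encoded by Nr4a1, Nr4a2 and Nr4a3, need no known hormone and are switched on within minutes by cell stimulation. In mice Nr4a1 is needed for Ly6C-low monocytes, and it also follows antigen receptor signals in lymphocytes. The RefSeq start-site windows of all 3 genes (GRCm38.p6, 250 bases before to 50 after the start) are shown because the genes share a stimulus-responsive motif in them. They are written 5′ to 3′ on the strand of the gene. Capitals mark TGACG, the core of the cyclic AMP response element, on either strand, so that it reads CGTCA on the other. The windows are chr15:101266596-101266895 on the plus strand for Nr4a1, chr2:57123954-57124253 on the minus strand for Nr4a2 and chr4:48045055-48045354 on the plus strand for Nr4a3.
Nr4a1: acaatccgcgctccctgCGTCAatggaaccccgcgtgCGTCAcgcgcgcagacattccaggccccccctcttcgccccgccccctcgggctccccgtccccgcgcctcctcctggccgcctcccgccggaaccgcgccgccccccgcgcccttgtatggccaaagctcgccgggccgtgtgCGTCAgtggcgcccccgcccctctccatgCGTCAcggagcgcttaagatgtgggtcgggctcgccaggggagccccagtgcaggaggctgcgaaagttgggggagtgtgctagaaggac
Nr4a2: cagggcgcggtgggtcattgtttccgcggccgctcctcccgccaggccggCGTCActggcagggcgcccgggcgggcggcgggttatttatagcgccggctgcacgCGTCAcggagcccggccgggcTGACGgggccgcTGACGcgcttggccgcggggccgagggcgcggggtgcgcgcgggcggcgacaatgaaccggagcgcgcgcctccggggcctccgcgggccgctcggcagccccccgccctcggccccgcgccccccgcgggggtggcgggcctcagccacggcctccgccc
Nr4a3: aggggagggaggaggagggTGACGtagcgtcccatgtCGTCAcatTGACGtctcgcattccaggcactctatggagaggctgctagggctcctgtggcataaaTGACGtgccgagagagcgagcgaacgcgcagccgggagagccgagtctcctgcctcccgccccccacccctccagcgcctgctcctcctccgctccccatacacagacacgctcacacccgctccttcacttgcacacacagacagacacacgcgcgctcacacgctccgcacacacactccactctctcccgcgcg

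Each window held 4 matches to TGACG. They began 233, 213, 69 and 40 bases upstream of the start in Nr4a1. In Nr4a2 they began 200, 144, 123 and 111 bases upstream, and in Nr4a3 231, 213, 205 and 147 bases upstream. Among all 32851 such windows in the table, 20.8% held at least 1 match and 0.231% held at least 4. The 3 windows are shown because they share the motif, so these shares are a description and not a test. The full palindrome TGACGTCA, which contains TGACG on both strands, was in none of the 3 windows and in 1.79% of all windows. A match is a description of the sequence and not a measured binding site. Of the 28 genes, 25 had a window in the table. Besides the NR4A genes, a window of Nr6a1 held 2 matches and the full palindrome, and all other windows held 1 match or 0.

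Nr4a1 had 1202 bone marrow reads and 2360 spleen reads, or 128 and 279 CPM. It was 2.18-fold higher in spleen (2.04 to 2.34), and was the receptor gene with the most reads in both libraries. Nr4a3 had 13 bone marrow reads and 99 spleen reads, or 1.38 and 11.7 CPM. That is 8.47-fold higher in spleen (4.73 to 16.5), on a small bone marrow count. Nr4a2 went the other way by a margin within counting error, with 79 reads in bone marrow and 64 in spleen, a ratio of 1.11 (0.788 to 1.57). Nr4a3 made up 1.36% of the group's RPKM in bone marrow and 5.23% in spleen, and Nr4a1 93.7% and 92.8%. Among 26 measured immediate early genes, 3 passed 2-fold towards bone marrow and 7 towards spleen (median log2 ratio -0.60). Egr3, an early growth response factor that T and B cells induce, was at 2.76 CPM in bone marrow, against 30.5 CPM in spleen, and Klf2, a factor of quiescent lymphocytes and of myeloid cells, at 99.4 and 423 CPM. Jun, a subunit of the AP-1 factor, lay 2.30-fold towards bone marrow (2.19 to 2.42). Ier3, a stress-induced survival gene, had 511 bone marrow reads and 79 spleen reads. The early genes therefore did not share a direction. B and T cell markers, which are listed above, were higher in the library where Nr4a1 and Nr4a3 were higher. So were most plasma cell, dendritic cell and macrophage core markers.

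The retinoid X receptors are the common partners of many other receptors, and the most abundant of them had the same level in both libraries within counting error. Rxrb had 1119 bone marrow reads and 985 spleen reads, or 119 and 116 CPM, a ratio of 1.02 (0.937 to 1.11). Rxra had 199 and 344 reads, or 21.2 and 40.7 CPM, and was 1.92-fold higher in spleen (1.61 to 2.30), inside the 2-fold limit. Rxrg had 3 and 2 reads. Rxra took 15.1% of the group's reads in bone marrow (13.2 to 17.1) and 25.8% in spleen (23.5 to 28.3), intervals that do not overlap. Per length, its share of the group's RPKM was 8.14% in bone marrow and 14.8% in spleen.

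The retinoic acid receptors, which bind all-trans retinoic acid and of which Rara is the gene fused to PML in promyelocytic leukaemia, were higher in spleen as a group, at 40.7 CPM in bone marrow, against 113 CPM in spleen. Rara had 240 bone marrow reads and 697 spleen reads, or 25.5 and 82.4 CPM. It was 3.23-fold higher in spleen (2.79 to 3.76). Rarg had 136 and 246 reads, or 14.5 and 29.1 CPM. Its ratio of 2.01 towards spleen (1.63 to 2.50) is -0.96 on the log2(CPM + 1) scale, just inside the limit. Rarb had 7 and 12 reads and gave no detectable difference at this depth. Of 11 measured enzymes and carriers of vitamin A, 8 stayed inside the limit, 3 passed 2-fold towards bone marrow and 0 towards spleen. Their median log2 ratio was 0.79, and between 0.39 and 0.53 with a pseudocount of 5, with RPKM, with no floor and with a floor of 10 CPM. Retsat, which saturates retinol, was at 26.4 CPM in bone marrow, against 6.15 CPM in spleen, and Dhrs7, a short-chain dehydrogenase, at 62.0 and 25.4 CPM. Aldh1a2, which makes retinoic acid in dendritic cells and macrophages, had 5 bone marrow reads and 17 spleen reads, 3.78-fold towards spleen (1.34 to 13.1) and -0.98 on the log2(CPM + 1) scale. Among 9 measured retinoic acid target genes, 1 passed 2-fold towards bone marrow and 6 towards spleen. Their median was -1.54, and -0.23 over the 16 listed genes with any read. Tgm2, a transglutaminase, was at 28.4 CPM in bone marrow, against 226 CPM in spleen, and Itgb7, a gut-homing integrin chain, at 99.1 and 414 CPM. Tgm2 is also on the list of LXR targets below. The gene higher in bone marrow was Cebpe, a granulocyte factor on the neutrophil marker list, at 199.8 and 7.21 CPM. Lymphocytes also express several of the other 6, among them Itga4 and Itgb7.

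The liver X receptors sense oxysterols and raise cholesterol export. In mice Nr1h3, encoding LXR alpha, is needed for splenic marginal zone macrophages. Nr1h3 had 64 bone marrow reads and 243 spleen reads, or 6.80 and 28.7 CPM. It was 4.22-fold higher in spleen (3.19 to 5.65). Nr1h2 had 1042 and 1041 reads, or 111 and 123 CPM, a 1.11-fold difference towards spleen (1.02 to 1.21). LXR alpha therefore made up 5.81% of the pair's RPKM in bone marrow and 19.0% in spleen. The bile acid receptor gene Nr1h4 had 1 read in bone marrow and 0 in spleen. The macrophage core list was higher in the same library as Nr1h3 (8 of 15 genes, median log2 ratio -1.12). The B cell, T cell, dendritic cell and plasma cell lists were higher there as well. Among 18 measured LXR target genes, 1 passed 2-fold towards bone marrow and 7 towards spleen, with Tgm2 among the 7. Their median was -0.46, and -0.23 without the 1 gene that is also on the macrophage list. Scd1, the stearoyl-CoA desaturase, was at 30.1 CPM in bone marrow, against 563 CPM in spleen. Cd5l, a secreted protein of resident macrophages, was at 8.51 and 71.8 CPM. Apoe, a cholesterol carrier and the list's gene with the most reads, was at 408 and 366 CPM. Cyp27a1, which makes an oxysterol that binds these receptors, had 133 bone marrow reads and 567 spleen reads and was 4.74-fold higher in spleen (3.92 to 5.77). Hsd3b7, an enzyme of bile acid synthesis, was higher in bone marrow, at 48.0 CPM there against 14.4 CPM in spleen.

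The fatty acid receptors of the PPAR group were close to level. Ppard had 220 bone marrow reads and 252 spleen reads, or 23.4 and 29.8 CPM, a 1.27-fold difference towards spleen (1.06 to 1.53). Pparg, known for its part in alveolar macrophages and fat cells, had 102 and 95 reads, or 10.8 and 11.2 CPM, a ratio of 0.966 (0.723 to 1.29). Ppara had 0 reads in bone marrow, with an upper limit of 0.392 CPM in the exact 95% Poisson interval, and 1 read in spleen. Among 20 measured PPAR target genes, 2 passed 2-fold towards bone marrow and 1 towards spleen (median log2 ratio 0.12). Cd36, the fatty acid scavenger receptor, was at 19.7 CPM in bone marrow, against 69.8 CPM in spleen. Olr1, a receptor for oxidised lipoprotein, went the other way at 33.4 and 3.67 CPM. Ucp2, a mitochondrial carrier and the list's gene with the most reads, was at 873 and 908 CPM.

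The main thyroid hormone receptor gene and the vitamin D receptor gene were higher in bone marrow. Thra had 454 bone marrow reads and 124 spleen reads, or 48.3 and 14.7 CPM. It was 3.29-fold higher in bone marrow (2.69 to 4.05). Its relative Thrb had 12 and 18 reads, with an interval of the ratio from 0.263 to 1.32 that includes equal levels. Dio2, the deiodinase that makes active thyroid hormone, had 435 bone marrow reads and 14 spleen reads and was 27.9-fold higher in bone marrow (16.5 to 51.5). Vdr had 45 and 9 reads, or 4.78 and 1.06 CPM, a 4.50-fold difference towards bone marrow (2.17 to 10.5). Among 8 measured genes listed as vitamin D targets, 3 passed 2-fold towards bone marrow and 1 towards spleen (median 0.83). Without Camp, which is also on the neutrophil marker list, 2 of 7 passed it towards bone marrow and 1 towards spleen (median 0.74). Whether Camp responds to Vdr in these mouse cells was not tested. Camp, the cathelicidin, which is also a neutrophil granule gene, was at 3102 and 169 CPM, and Car2, a carbonic anhydrase of osteoclasts and red cell precursors, at 141.5 and 52.5 CPM. The neutrophil list lay in the same direction (median log2 ratio 4.19), as did the list of stem, progenitor and leukaemia-associated genes (median 2.67). Markers of eosinophils, basophils and mast cells (median 4.67) and of megakaryocytes and platelets (median 1.975) did as well. Erythroid markers were mixed, with 3 of 11 past 2-fold towards bone marrow and 1 towards spleen (median 0.266).

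Among the steroid receptors, Nr3c1, the glucocorticoid receptor and the target of dexamethasone, had 1109 bone marrow reads and 1359 spleen reads, or 118 and 161 CPM. It was 1.36-fold higher in spleen (1.26 to 1.48). Esr1, the oestrogen receptor alpha, had 91 and 32 reads, or 9.68 and 3.78 CPM, and was 2.56-fold higher in bone marrow (1.69 to 3.96). The mineralocorticoid receptor gene Nr3c2 had 5 and 8 reads and Esr2 had 3 and 5. Glucocorticoid target genes divided, with 7 of 19 past 2-fold towards bone marrow and 6 towards spleen (median log2 ratio -0.65). Ddit4, a stress-induced inhibitor of mTOR, was at 27.6 CPM in bone marrow, against 179 CPM in spleen. Anxa1, an anti-inflammatory annexin abundant in granulocytes, was at 1407 and 87.7 CPM. Hsd11b1, which regenerates active glucocorticoid, was at 96.8 and 26.7 CPM, a 3.62-fold difference (3.13 to 4.21). Hsd11b1 was among 6 of 15 measured genes of steroid and thyroid hormone metabolism past 2-fold towards bone marrow, with 0 towards spleen. Cyp11a1, which starts steroid synthesis from cholesterol, had 240 bone marrow reads and 12 spleen reads. Markers of eosinophils, basophils and mast cells lay in the same direction (median log2 ratio 4.67). So did the neutrophil list (median 4.19) and the stem, progenitor and leukaemia-associated list (median 2.67).

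**Figure D2:**
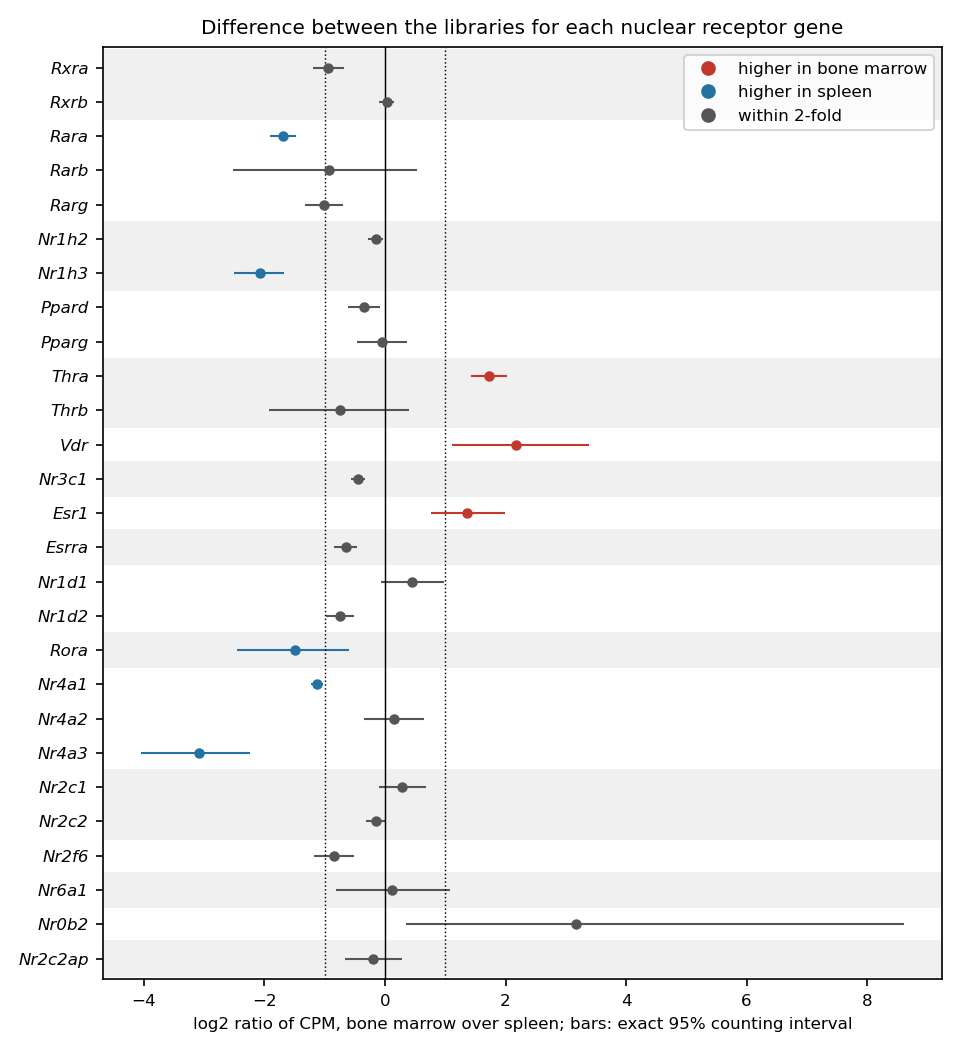
The log2 ratio of CPM, bone marrow over spleen, for 27 of the 28 genes, with no pseudocount and with bars for the exact 95% counting interval. Dotted lines mark 2-fold. Red points were called higher in bone marrow (Thra, Vdr, Esr1) and blue points higher in spleen (Rara, Nr1h3, Rora, Nr4a1, Nr4a3) on log2(CPM + 1). That is why Nr0b2, with 10 reads and 1 read, and Rarg, with a ratio of 2.01 towards spleen, stay grey.

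The oestrogen-related receptor gene Esrra, a regulator of mitochondrial energy genes, had 379 bone marrow reads and 536 spleen reads, or 40.3 and 63.4 CPM, a 1.57-fold difference towards spleen (1.38 to 1.80). Its relatives were barely detected, with 3 and 0 reads for Esrrb and 0 and 4 for Esrrg.

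The REV-ERBs, encoded by Nr1d1 and Nr1d2, are repressors in the circadian clock that share DNA sites with the ROR activators. Nr1d2 had 250 bone marrow reads and 377 spleen reads, or 26.6 and 44.6 CPM, a 1.68-fold difference towards spleen (1.43 to 1.98). Nr1d1 had 79 and 52 reads, or 8.40 and 6.15 CPM, a ratio of 1.37 (0.951 to 1.98) that includes equal levels. Nr1d1 accounted for 24.0% of the pair's reads in bone marrow (19.5 to 29.0) and 12.1% in spleen (9.19 to 15.6). Per length, its share of the pair's RPKM was 35.8% in bone marrow and 19.6% in spleen. Among 18 measured clock genes, 3 passed 2-fold in each direction (median log2 ratio 0.05). Clock was at 13.7 CPM in bone marrow, against 42.1 CPM in spleen, and Bhlhe41, a clock repressor, at 1.06 and 22.7 CPM. Hlf, a clock output factor that also marks stem cells, had 505 bone marrow reads and 7 spleen reads.

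Rora, which encodes a ROR activator, was low in both libraries and higher in spleen. It had 15 bone marrow reads and 38 spleen reads, or 1.59 and 4.49 CPM, a 2.82-fold difference (1.51 to 5.51). All 14 T cell markers were higher in spleen as well (median log2 ratio -3.18). So were all 12 B cell markers (median -3.03) and most dendritic cell and plasma cell markers. Of 10 NK and innate lymphoid markers, 5 passed 2-fold towards spleen and 1 towards bone marrow (median -0.785). The part of any of these cells was not tested.

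**Figure D3:**
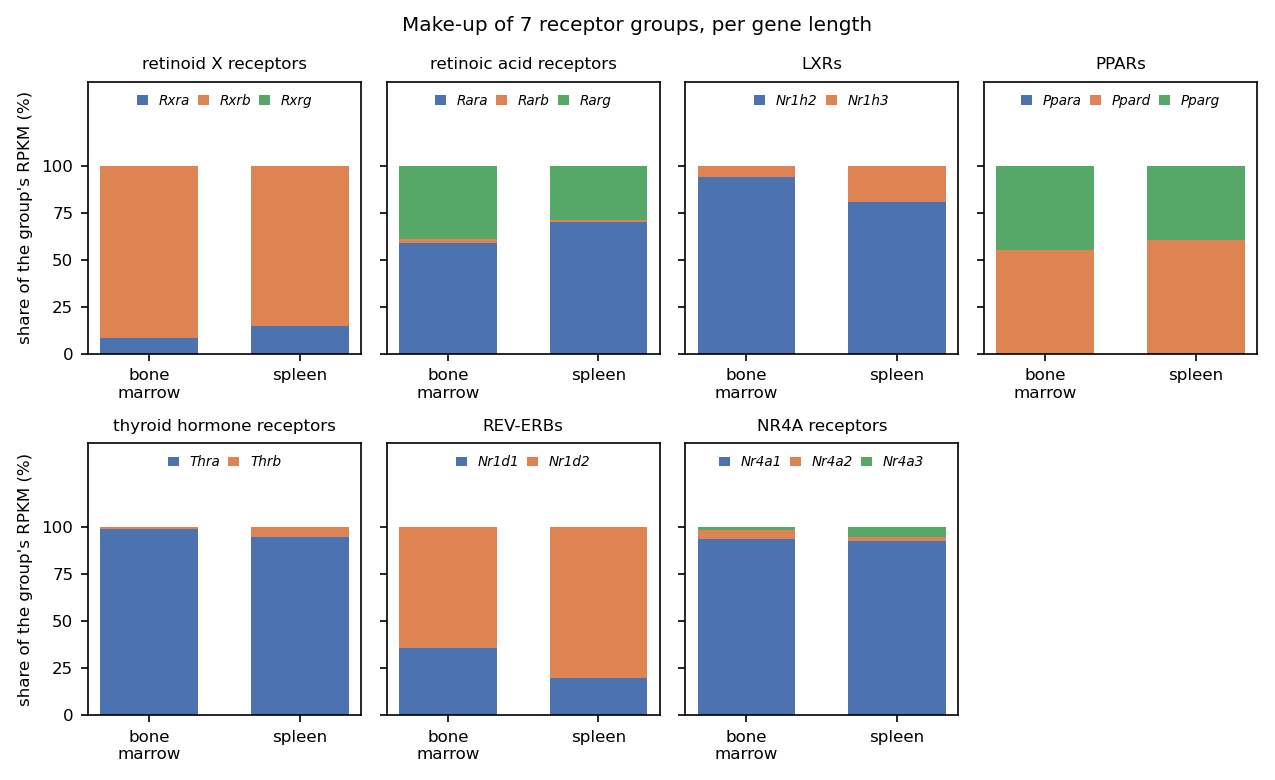
Stacked bars give the share of each gene in its group's summed RPKM, with bone marrow left of spleen. LXR alpha (Nr1h3) takes 5.81% of the LXR pair in bone marrow and 19.0% in spleen, while Nr4a1 takes 93.7% and 92.8% of the NR4A group.

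The remaining receptors act with no firmly known ligand. Nr2c2 and Nr2c1, which encode the testicular receptors TR4 and TR2 that repress embryonic globin genes in red cell precursors, differed by less than counting error. Nr2c2 had 650 bone marrow reads and 648 spleen reads, or 69.1 and 76.6 CPM, a ratio of 0.902 (0.808 to 1.01). Nr2c1 had 129 and 95 reads, or 13.7 and 11.2 CPM, a ratio of 1.22 (0.930 to 1.61). Nr2f6, a COUP-TF relative that restrains T cell cytokines in mice, had 124 and 201 reads, or 13.2 and 23.8 CPM, and was 1.80-fold higher in spleen (1.43 to 2.27). Nr6a1, the germ cell nuclear factor, had 23 and 19 reads. Nr0b2, which encodes the small heterodimer partner and lacks a DNA-binding domain, had 10 bone marrow reads and 1 spleen read, a ratio of 8.99 (1.28 to 390.2). Nr2c2ap had 75 and 77 reads, a ratio of 0.876 (0.629 to 1.22).

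The deposited table also gives the share of each gene's length that reads covered, which shows how evenly a count is spread. Nr1d2, with 53.9 reads per kb in bone marrow and 81.3 in spleen, was covered over 89.7% and 95.1% of its length. Nr2c2 had 85.1 and 84.8 reads per kb and was covered over 51.4% and 52.6%. Nr2c2ap was covered over 52.1% and 49.4%, from 75 and 77 reads. In the GENCODE M21 annotation, exons of Nr2c2 share 4590 bases with exons of Mrps25 on the opposite strand, and those of Nr2c2ap share 1341 bases with Rfxank on the opposite strand. The deposited length of Nr2c2ap is 1184 bases, less than that overlap. The 2 annotations therefore differ, and shared bases cannot be set directly against the covered shares. Mrps25, chosen after its values were seen, had 4586 bases without a read in bone marrow and 4486 in spleen, and was covered over 24.5% and 26.2% of its length. Nr2c2 itself had 3709 and 3624 bases without a read. Whether the overlap accounts for its uncovered length was not tested. Nr2f6 shares 1622 exonic bases with Ocel1 and was covered over 90.5% and 93.4%. Nr1d1 and Thra, neighbours on opposite strands, share 263 bases. The sources used here do not say whether reads were counted by strand, so counts of Nr2c2, Nr2c2ap, Nr2f6, Nr1d1, Thra, Esrra and Rarb, whose exons overlap those of another gene with reads, are uncertain. For Esr1 and Vdr the covered share differed as the counts did, with 64.2% in bone marrow and 26.0% in spleen for Esr1 and 38.2% and 8.36% for Vdr. At such low counts the covered share follows the number of reads, so it is not separate support for these differences.

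**Figure D4:**
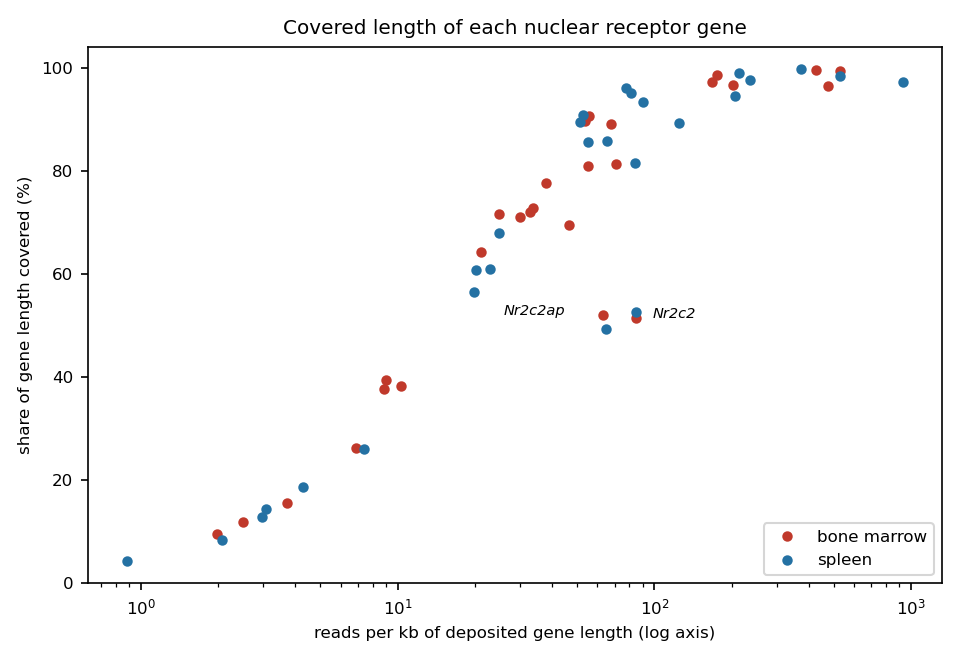
The share of gene length covered by reads against reads per kb of gene length on a log axis, with 1 point per gene and library for 27 of the 28 genes (red, bone marrow; blue, spleen). Nr2c2 and Nr2c2ap lie apart from the rising band, near 50% covered, in both libraries.

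Receptors exchange corepressors for coactivators, and genes of both kinds were measured. None of 11 measured corepressor genes was past 2-fold in either direction (median log2 ratio 0.11). Ncor1, the core nuclear receptor corepressor, was at 399.6 CPM in bone marrow, against 370.3 CPM in spleen. Among 19 coactivator genes, 1 passed 2-fold towards bone marrow and 2 towards spleen (median -0.21). Ncoa3, a steroid receptor coactivator, had 1072 bone marrow reads and 2698 spleen reads and was 2.80-fold higher in spleen (2.61 to 3.01). Crebbp, the CBP acetyltransferase, was at 56.8 and 136 CPM, and its relative Ep300 at 162 and 285 CPM. Ncoa4, named as a receptor coactivator and also the receptor that sends ferritin to lysosomes, went the other way at 425.5 and 157.5 CPM, a 2.70-fold difference (2.54 to 2.88).

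**Figure D5:**
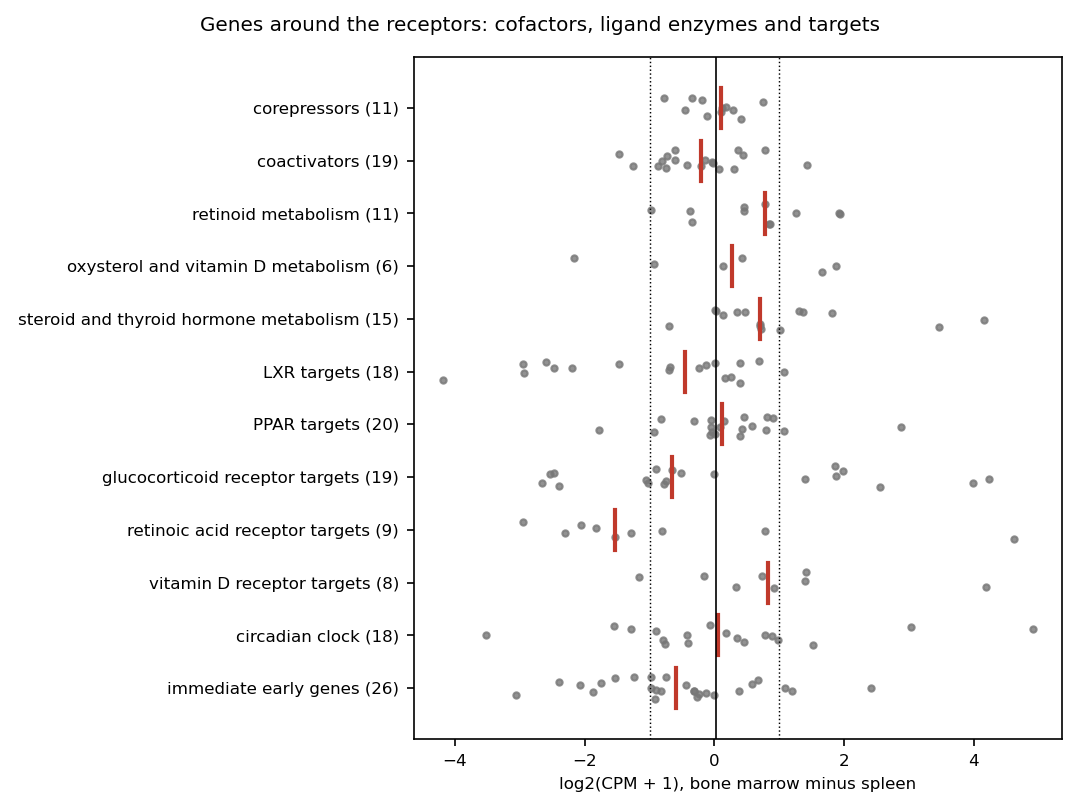
Each grey point is a measured gene of a list of cofactors, ligand enzymes or targets, placed by its log2(CPM + 1) difference, bone marrow minus spleen, with the number of measured genes in brackets. Red bars are list medians, from -1.54 for retinoic acid targets to 0.83 for vitamin D targets, the solid line is the median of all measured genes (0.03), and dotted lines mark 2-fold.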

How the data were processed

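For each gene the deposited tables list, per the file headers, a count of uniquely placed reads, the length, the percent of the length that reads cover, and RPKM. The sources used here name no aligner, counting program, build or annotation. The 2 tables were joined on Entrez identifiers, a missing gene was given 0 reads, and 16379 of 16428 identifiers matched RefSeq names. The deposited RPKM values matched recomputed ones to within 6.7e-06 percent.

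TMM factors of 0.977 (bone marrow) and 1.02 (spleen), from edgeR 4.0.16 under R 4.3.3, scaled the counts to effective depths of 9405947 and 8457857 reads. A gene was measured with at least 1 CPM and 10 reads in at least 1 library. A count of 0 was taken to allow up to 3 reads. Counts simulated with known fold changes were used to check the steps.

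Receptors were taken by symbol. All 28 with 10 or more reads in a library are described, in full at 10 CPM or more, except 1 that is not reported here. From each list of related genes up to 4 with the largest ratio and 2 with the most reads could be named. Members and lists were chosen with earlier results of these data known. The values were recomputed with size factors of DESeq2 1.42.0, unscaled library totals, TMM factors without cell type markers, pseudocounts of 0.1 and 5, deposited RPKM, other floors, a 4-fold rule and leaving out Nr2c2ap, and, chosen after seeing the data, lists without cell type markers.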

Additional observations from a re-analysis of the deposited data

How the results depend on the processing

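The number of genes higher in bone marrow was 3, and it was 1 with a pseudocount of 5, 1 with the deposited RPKM and 1 with a floor of 10 CPM, where Thra alone was left, and 0 with the 4-fold rule. The number higher in spleen was 6. It was 4 with a pseudocount of 5, 5 with the deposited RPKM, 4 with a floor of 10 CPM and 1 with the 4-fold rule (Nr4a3). DESeq2 size factors, TMM factors without cell type markers and leaving out Nr2c2ap changed neither count, while library totals alone added Rarg to spleen (-1.02 on the log2 scale), as did a pseudocount of 0.1, which also added Nr0b2 to bone marrow (2.41). Esr1 and Vdr, both under 10 CPM, lost their call with a pseudocount of 5 and with RPKM, as did Rora. No called gene changed direction under any scaling or pseudocount run. Of 28 list counts, 27 stayed within 1.5 times the value given with library totals alone, 22 with a pseudocount of 0.1, 25 with a pseudocount of 5 and with RPKM, 12 with the 4-fold rule and 27 without genes on a cell type marker list. Of 14 list medians, 4 moved by over 0.2 (log2) with a pseudocount of 5 and with no floor, 4 of 13 with a floor of 10 CPM, 3 with RPKM and 2 with a pseudocount of 0.1. No paired analysis was possible because there was 1 library per tissue, and no library could be left out for the same reason.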

Other observations

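Nuclear receptors whose symbols follow another pattern were looked at beside the 28 genes. Of 4 listed, 3 were measured, of which 2 passed 2-fold towards bone marrow, 0 passed it towards spleen and 1 stayed inside the limit. With a pseudocount of 0.1 the gene inside the limit passed it towards spleen. Pgr, the progesterone receptor gene, had 44 bone marrow reads and 0 spleen reads. Taking 3 reads for the spleen library gives a ratio of 13.2 towards bone marrow. That ratio leaves out counting error in the 44 reads and is not a lower limit. On the log2 scale the difference of 2.50 for Pgr became 0.95 with a pseudocount of 5 and 0.73 with RPKM, inside the 2-fold limit. Hnf4a, a factor best known from liver and gut, had 84 bone marrow reads and 2 spleen reads, a ratio of 37.8 (10.1 to 317). Hnf4g had no read in either library. Markers of stem, progenitor and leukaemia-associated cells were higher in the same library (11 of 13 genes). So were most markers of neutrophils and of eosinophils, basophils and mast cells. Those of stromal and endothelial cells summed to 166 CPM in bone marrow, against 191 CPM in spleen, with 5 of 9 measured genes past 2-fold towards bone marrow and 1 towards spleen, and with Bglap, Cxcl12 and Emcn at 0 reads in spleen. The part of these cells in the differences was not tested.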
